A study of Saccharomyces cerevisiae with 16 samples.

Results

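The 10 yeast genes described here, MET2, MET3, MET6, MET10, MET14, MET16, MET17, MET22, CYS3 and MUP1, turn inorganic sulfate into methionine and cysteine or bring methionine into the cell. They were taken by gene name from 7126 annotated transcripts, and all 10 were found. The libraries were made from Saccharomyces cerevisiae grown in synthetic complete medium. The strain YTK113, labelled hda1-/-, lacks HDA1 and is written hda1Δ in the study, and the strain YSB787 is labelled wild type. HDA1 encodes a histone deacetylase that works in a complex with Hda2 and Hda3. Each genotype is 1 strain and has 1 library at each of 8 stages, so differences have no replicate check, and the intervals below cover counting error only. Cells in raffinose (0 min) were moved to galactose (15, 30 and 120 min), then to glucose (30 and 120 min), then back to galactose for a second pulse (15 and 30 min). The question was how loss of HDA1 changes expression while the carbon source changes.

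Sulfate is activated with ATP, reduced to sulfide and joined to an activated homoserine to give homocysteine, which is methylated to methionine or passed through cystathionine to cysteine. In yeast most genes of this route are switched on together by the activator Met4 when methionine and its product S-adenosylmethionine run low. Met4 cannot bind DNA by itself and is brought to promoters by Cbf1 and by the zinc-finger proteins Met31 and Met32, and the ubiquitin ligase subunit Met30 restrains it when sulfur amino acids are plentiful. Synthetic complete medium normally supplies methionine, but the amount used here is not given in the sources used here.

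Short sequences known to be bound by the regulators of the pathway were looked for upstream of the genes. A selection of those found is shown here because the activator is known to act through them. The 500 bases before each start codon were searched on both strands in the R64 genome, with RefSeq sequence, for CACGTG, the palindrome bound by Cbf1, and for CTGTGG, the core of the element bound by Met31 and Met32. CACGTG was present upstream of 9 of the 10 genes, of 16 of 41 other sulfur genes and of 355 of 5881 expressed open reading frames (6.04%). CTGTGG was present upstream of 5 of the 10 (MET3, MET6, MET10, MET17 and MUP1), of 24 of the 41 and of 780 of the 5881 (13.3%). The longer form AAACTGTGG, which contains CTGTGG, was present upstream of MET3, MET6 and MUP1 (3 of 10), of 9 of the 41 and of 0.833% of the 5881. The motifs were chosen from textbook knowledge of this pathway, and a match in a window is a description of its letters. Below, capitals mark the motif in windows of 30 bases, written 5′ to 3′ on the strand of the gene. MET3 and MET10 hold a pair of CACGTG motifs, and each also holds a Met31 and Met32 core that is not shown. MET17 holds one of each kind, as does MET6, which is not shown. MUP1 holds only the Met31 and Met32 core, here on the opposite strand as CCACAG.
MET3 (chrX:455859-455888, plus strand): ggtCACGTGaccagaaaagtCACGTGtaat
MET10 (chrVI:213060-213089, plus strand): cacCACGTGagcttatagaagCACGTGacc
MET14 (chrXI:439596-439625, minus strand): tgccactaatttCACGTGatcaatatattt
MET2 (chrXIV:116984-117013, plus strand): ttgacgtattttCACGTGatgcgcctcact
CYS3 (chrI:130571-130600, plus strand): taattagccattCACGTGatctcagccagt
MET17, Cbf1 motif (chrXII:732230-732259, plus strand): aatggcaaatggCACGTGaagctgtcgata
MET17, Met31 and Met32 core (chrXII:732256-732285, plus strand): gatattggggaaCTGTGGtggttggcaaat
MUP1 (chrVII:598941-598970, plus strand): ctgcatccgccaCCACAGttttttttagcg

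**Figure D1:**
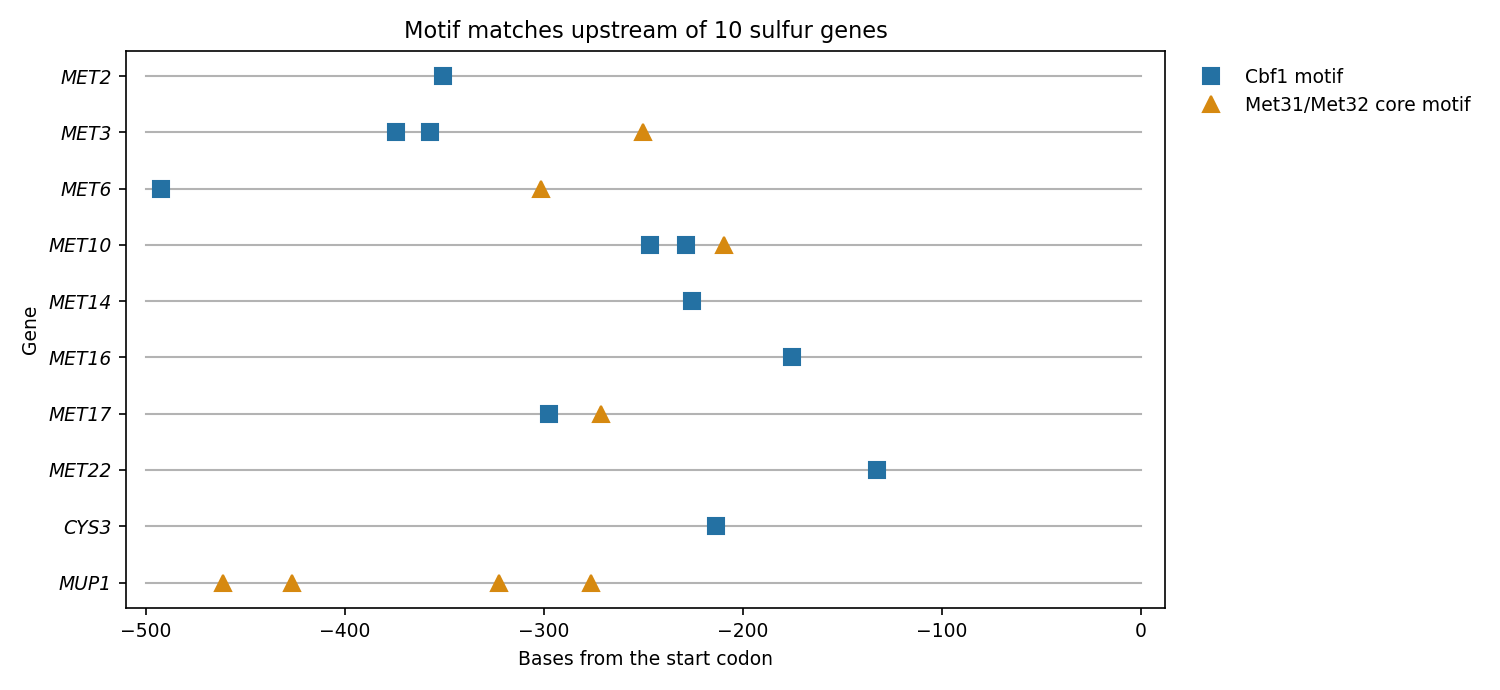
Each row is the 500 bases before the start codon of 1 gene, with distance from the start codon in bases on the horizontal axis; squares mark CACGTG and triangles mark CTGTGG on either strand. Squares are present in 9 of the 10 rows, between 495 and 135 bases upstream, and MUP1 has 4 triangles and no square.

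Expression is given as FPKM, fragments per kilobase of transcript scaled to library size, as the authors' StringTie files hold it. The libraries held 1.89 to 2.80 Gb of aligned sequence (median 2.504). HDA1, the deleted gene, was at 0 to 0.162 FPKM in the 8 hda1-/- libraries and at 27.0 to 38.8 FPKM in the 8 wild-type libraries, with 7 of the 8 hda1-/- values under 3 fragments. Fold changes use FPKM plus 1. A gene is called higher or lower between genotypes past 1.7-fold (0.588 for lower), and between stages past 2-fold (0.5 for lower). The study used 1.7-fold for increases, and it states neither a cutoff for decreases nor an added 1 FPKM. Of 6685 nuclear open reading frames, 5881 averaged at least 1 FPKM and were tested, all 10 sulfur genes among them, and the lowest value of any of the 10 rests on 39 fragments. In bulk RNA, fewer cells expressing a gene and less RNA per cell cannot be told apart. Parentheses after folds hold 95% counting intervals.

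The 10 genes spanned a wide range of levels, and in raffinose MET6 was the highest and MET2 the lowest in both strains. At that stage in hda1-/-, MET6 stood at 910 FPKM, CYS3 at 271, MET17 at 108, MUP1 at 94.6, MET22 at 42.4, MET10 at 22.1, MET14 at 21.5, MET3 at 19.1, MET16 at 10.0 and MET2 at 9.21 FPKM. At the same stage in wild type, MET6 stood at 851 FPKM, CYS3 at 304, MUP1 at 102, MET17 at 96.4, MET22 at 51.3, MET10 at 20.5, MET14 at 19.0, MET3 at 15.96, MET16 at 11.5 and MET2 at 3.52 FPKM. Counting intervals of MET14 overlapped those of both MET10 and MET3 in each strain, those of MET16 and MET2 overlapped in hda1-/-, and those of MUP1 and MET17 overlapped in wild type. The summed level of the 10 genes ran between 335 and 4070 FPKM in hda1-/- and between 289 and 3348 FPKM in wild type. The highest value of every gene fell at 30 min of glucose in both strains, except that MET2 in hda1-/- was at 9.21 FPKM in raffinose and 9.05 FPKM at 30 min of glucose, with overlapping intervals.

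**Figure D2:**
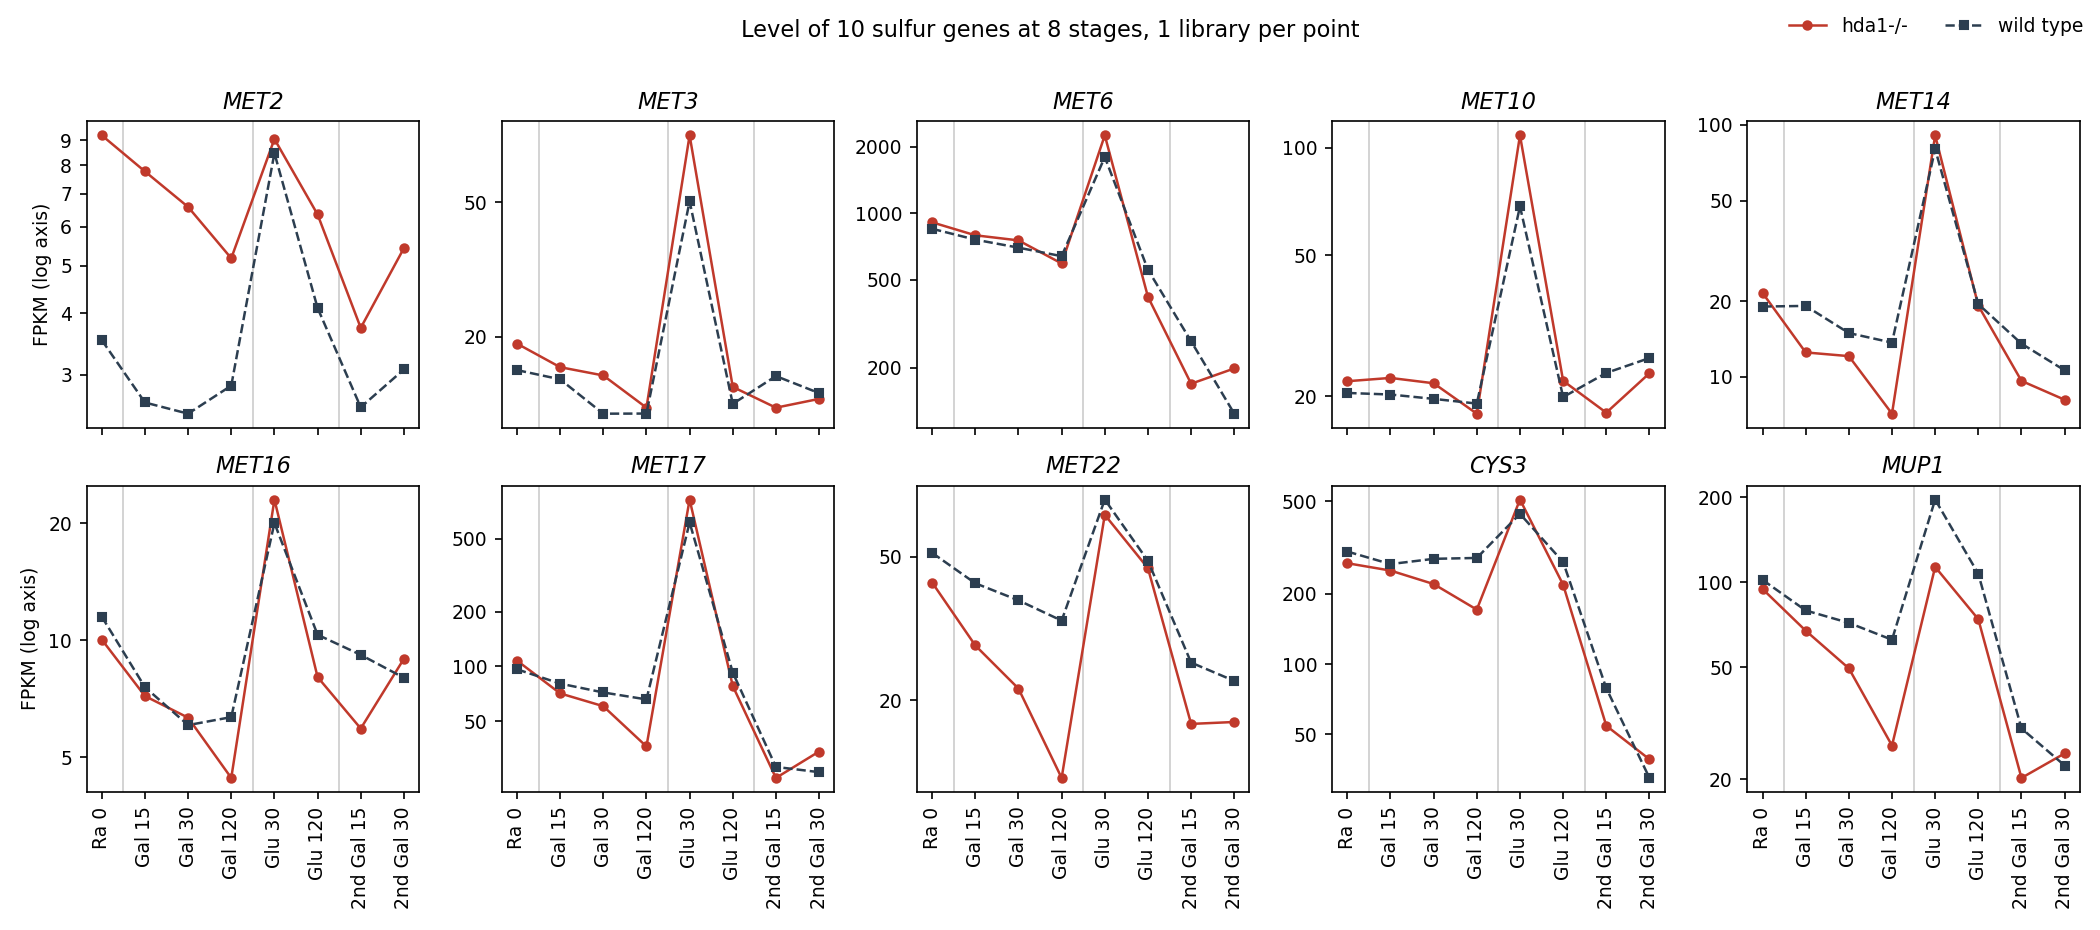
Level in FPKM (log axis, a separate scale for each gene) of the 10 genes at the 8 stages in order, with 1 library per point; circles and solid lines are hda1-/-, squares and broken lines are wild type, and grey lines mark the changes of sugar. A peak at 30 min of glucose is seen in every panel in both strains, against a first value just as high for MET2 in hda1-/-.

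The peak after glucose addition was the largest movement of the group by its median fold. From 120 min of galactose to 30 min of glucose, 9 of 10 genes passed 2-fold upward in hda1-/-, where 28.6% of all tested open reading frames did, and 9 of 10 in wild type, where 10.1% did. The median fold of the 10 was 4.72 in hda1-/- and 2.98 in wild type, beside medians over all tested open reading frames of 1.47 in hda1-/- and 1.27 in wild type. After subtraction of those medians on the log2 scale, 9 genes in hda1-/- (beside 11.0% of tested open reading frames) and 7 in wild type (beside 4.57%) were past 2-fold, with MET2 (1.94-fold) and MET22 (1.68-fold) falling inside in wild type. MET2 was the gene within 2-fold in hda1-/- (1.63-fold), and CYS3 was the one in wild type (1.54-fold).

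The fold at this change of sugar was larger in hda1-/- than in wild type for 9 of the 10 genes, and for 9 after the same subtraction. MET17 differed most, by 1.26 on the log2 scale, followed by MET22 at 1.24, MET14 at 1.03 and CYS3 at 0.94, and MET2 went the other way at -0.60, beside a median difference of 0.22 over all tested open reading frames. At 120 min of galactose, where these folds start, 8 of the 10 genes were below wild type in hda1-/-, or 6 of the 10 relative to the median of all tested open reading frames, since MET6 (0.927-fold, 1.02-fold after centring) and MET10 (0.940-fold, 1.04-fold after centring) turned direction. The difference between strains has no test with 1 library each.

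**Figure D3:**
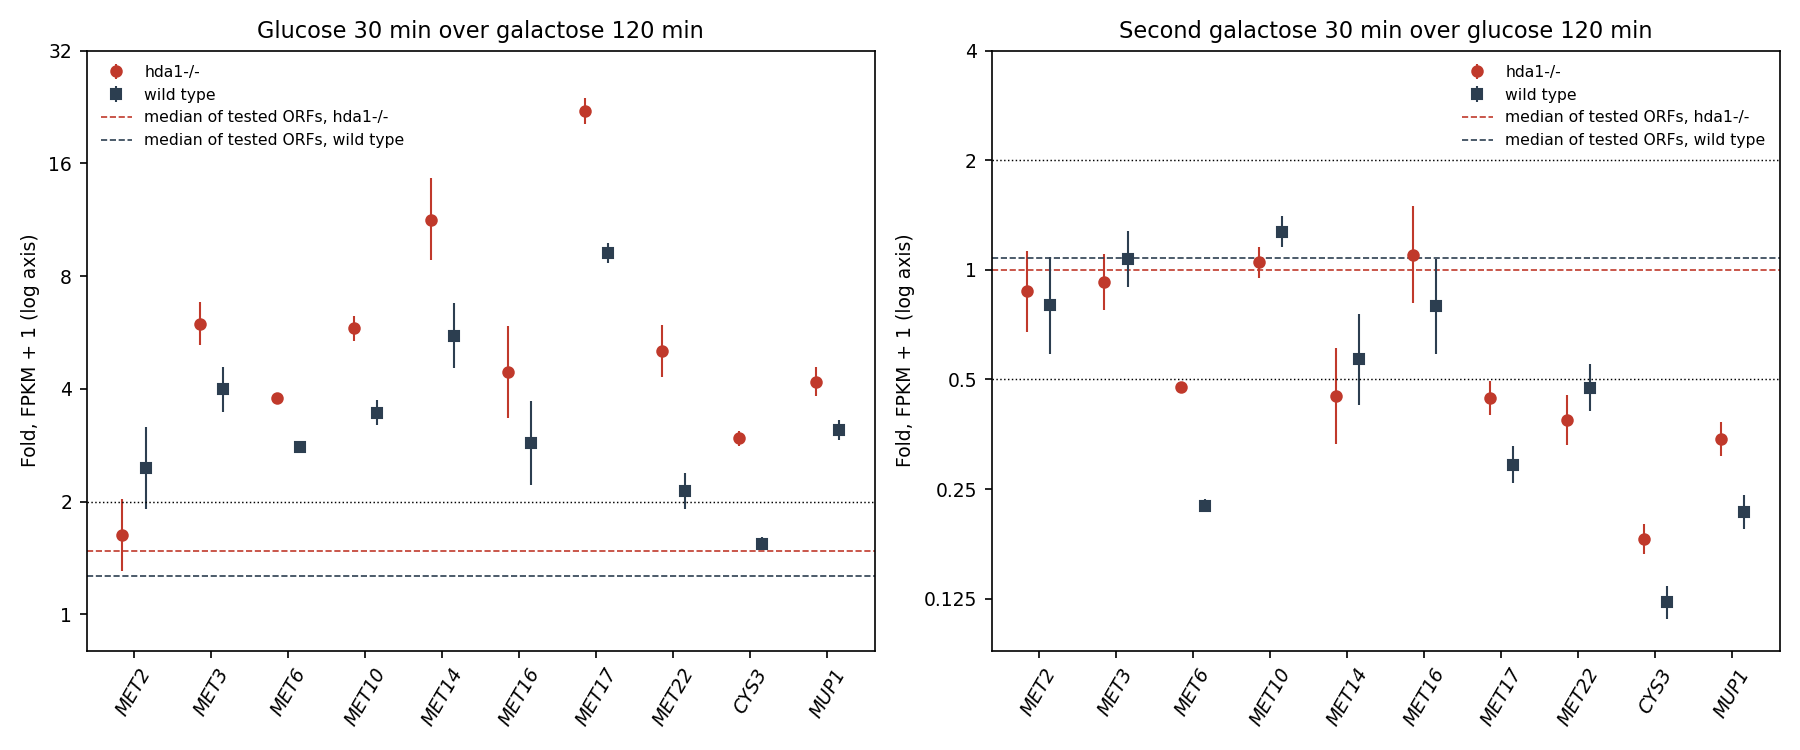
Fold of FPKM plus 1 (log axes) for each gene from 120 min of galactose to 30 min of glucose (left) and from 120 min of glucose to 30 min of the second galactose pulse (right), with 95% counting intervals; circles are hda1-/-, squares are wild type, broken lines are the medians of all tested open reading frames and dotted lines are 2-fold. On the left MET17 is highest in both strains, at 22.0-fold in hda1-/- and 9.24-fold in wild type, and on the right CYS3 is lowest, at 0.182-fold in hda1-/- and 0.122-fold in wild type.

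MET3, MET14 and MET16 encode the activating and first reducing enzymes of sulfate assimilation: ATP sulfurylase, adenylylsulfate kinase and phosphoadenylylsulfate reductase. MET14 (YKL001C, chromosome XI, 438777 to 439385, minus strand, 1 exon) was at 21.5, 12.5, 12.1, 7.14, 91.0, 19.2, 9.64 and 8.11 FPKM over the 8 stages of hda1-/-. In wild type MET14 was at 19.0, 19.1, 14.9, 13.7, 80.3, 19.4, 13.5 and 10.6 FPKM. It sat lower in hda1-/- than in wild type through galactose, and close to it in raffinose and at 120 min of glucose. Its rise after glucose addition was 11.3-fold (8.81 to 14.6) in hda1-/- and 5.54-fold (4.55 to 6.78) in wild type, the second largest of the 10 in both.

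MET3 (YJR010W, chromosome X, 456239 to 457774, plus strand, 1 exon) was at 19.1, 16.3, 15.4, 12.4, 78.8, 14.2, 12.4 and 13.1 FPKM in hda1-/-. In wild type its values were 15.96, 14.99, 11.9, 11.9, 50.3, 12.7, 15.3 and 13.6 FPKM. Outside the glucose peak MET3 therefore stayed in a narrow band in both strains, and in the second galactose pulse it lay where it had been at 120 min of glucose, at 0.927-fold in hda1-/- and 1.07-fold in wild type. The peak itself was 1.56-fold (1.44 to 1.68) higher in hda1-/-, inside the 1.7-fold threshold.

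MET16 (YPR167C, chromosome XVI, 876847 to 877632, minus strand, 1 exon) was at 10.0, 7.18, 6.32, 4.42, 23.0, 8.04, 5.93 and 8.96 FPKM in hda1-/-. In wild type MET16 was at 11.5, 7.57, 6.05, 6.34, 20.0, 10.3, 9.17 and 8.004 FPKM. It passed 2-fold upward with glucose in both strains, by 4.42-fold in hda1-/- and 2.86-fold in wild type, and no genotype difference passed 1.7-fold at any stage.

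MET10 encodes a subunit of sulfite reductase, which makes sulfide, and MET22 encodes the phosphatase that clears the phosphoadenosine by-product of the reduction. MET10 (YFR030W, chromosome VI, 213312 to 216419, plus strand, 1 exon) kept between 17.9 and 23.3 FPKM in hda1-/- at the 7 stages other than 30 min of glucose and between 19.1 and 25.7 FPKM in wild type, against peaks of 109 FPKM in hda1-/- and 68.5 FPKM in wild type. MET10 and MET3 had the flattest profiles of the group apart from that peak.

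MET22 behaved differently. MET22 (YOL064C, chromosome XV, 206103 to 207176, minus strand, 1 exon) was at 42.4, 28.4, 21.5, 12.2, 65.4, 46.5, 17.2 and 17.4 FPKM in hda1-/-. Wild type had 51.3, 42.2, 37.9, 33.3, 72.1, 48.7, 25.4 and 22.6 FPKM. All 8 values were lower in hda1-/-, least at 120 min of glucose (0.955-fold) and most at 120 min of galactose (0.384-fold, 0.323 to 0.456), and the genotype difference also passed the threshold at 30 min of galactose (0.580-fold, 0.504 to 0.666). From raffinose to 120 min of galactose it fell to 0.303-fold in hda1-/-, against 0.655-fold in wild type, which is within 2-fold.

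MET2, MET17 and MET6 carry sulfide into methionine: homoserine acetyltransferase, acetylhomoserine sulfhydrylase and methionine synthase. MET17 (YLR303W, chromosome XII, 732542 to 733876, plus strand, 1 exon), the step where sulfur joins the carbon chain, was at 108, 71.1, 60.5, 36.4, 823, 78.0, 24.4 and 34.1 FPKM in hda1-/-. Wild type had 96.4, 80.4, 71.9, 65.9, 617, 92.5, 28.1 and 26.3 FPKM. MET17 thus had the widest swing of the group, with its highest value 33.7-fold above its lowest in hda1-/- and 23.5-fold in wild type. The rise after glucose addition was 22.0-fold (20.4 to 23.9) in hda1-/- and 9.24-fold (8.69 to 9.83) in wild type. MET17, which is deleted as a marker in some laboratory strains, was expressed in all 16 libraries.

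MET6 (YER091C, chromosome V, 339864 to 342167, minus strand, 1 exon) was the most abundant of the 10 at every stage, at 910, 795, 754, 593, 2251, 419, 170 and 199 FPKM in hda1-/-. Wild type had 851, 760, 699, 640, 1795, 555, 264 and 124 FPKM. Between 15 and 30 min of the second pulse the order of the strains changed, with 170 FPKM in hda1-/- and 264 FPKM in wild type at 15 min, and 199 FPKM in hda1-/- and 124 FPKM in wild type at 30 min. The genotype fold at 30 min of the second pulse was 1.60 (1.52 to 1.67), and 1.78 relative to the median of all tested open reading frames, which passes the threshold as 4.54% of them did after the same centring.

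MET2 stood apart as the only gene of the group called higher in hda1-/-. MET2 (YNL277W, chromosome XIV, 117349 to 118809, plus strand, 1 exon) was at 9.21, 7.78, 6.58, 5.17, 9.05, 6.35, 3.73 and 5.43 FPKM in hda1-/-. The wild-type values were 3.52, 2.63, 2.497, 2.85, 8.47, 4.10, 2.57 and 3.07 FPKM. MET2 was higher in hda1-/- at all 8 stages, by 1.06 to 2.42-fold. It passed 1.7-fold in raffinose (2.256-fold, 1.75 to 2.91), where 4.90% of tested open reading frames did, at 15 min of galactose (2.42-fold, 1.87 to 3.11), where 7.84% did, and at 30 min of galactose (2.17-fold, 1.67 to 2.80), where 9.35% did. The strains met at 30 min of glucose, at 1.06-fold (0.872 to 1.29). Relative to the median of all tested open reading frames, MET2 also passed 1.7-fold at 2 later stages. It did so at 120 min of galactose (1.77-fold), where 10.3% did, and at 30 min of the second pulse (1.76-fold), where 4.54% did. MET2 is also the gene whose call depends most on the pseudocount, since with 5 FPKM added those folds were 1.67, 1.67 and 1.55. Its coding sequence shares 379 of 1461 bases with YNL276C on the opposite strand, and whether the authors' counting used strand is not given in the sources used here. YNL276C was at 2.75 to 9.89 FPKM in hda1-/- and at 4.10 to 12.6 FPKM in wild type.

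CYS3 encodes cystathionine gamma-lyase, which releases cysteine, and MUP1 encodes the high-affinity methionine permease of the plasma membrane. CYS3 (YAL012W, chromosome I, 130799 to 131983, plus strand, 1 exon) was at 271, 252, 220, 171, 507, 219, 54.4 and 39.1 FPKM in hda1-/-. Wild type had 304, 268, 283, 285, 441, 274, 78.8 and 32.5 FPKM. The lowest values of CYS3 in both strains were thus in the second pulse, and no stage passed the genotype threshold, the nearest being 120 min of galactose at 0.602-fold (0.573 to 0.632).

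MUP1 (YGR055W, chromosome VII, 599417 to 601141, plus strand, 1 exon) was at 94.6, 67.3, 49.5, 26.3, 113, 73.9, 20.2 and 24.7 FPKM in hda1-/-. In wild type MUP1 was at 102, 79.4, 71.8, 62.5, 196, 107, 30.3 and 22.4 FPKM. The permease was lower in hda1-/- at the first 7 stages and slightly above wild type at the last. It was called lower at 120 min of galactose (0.430-fold, 0.391 to 0.474) and at 30 min of glucose (0.579-fold, 0.552 to 0.608), where 1.39% of tested open reading frames were called lower and no other gene of the group was. At the glucose peak the permease therefore stood below wild type while MET3, MET6, MET10 and MET17 stood above it by 1.25 to 1.58-fold.

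**Figure D4:**
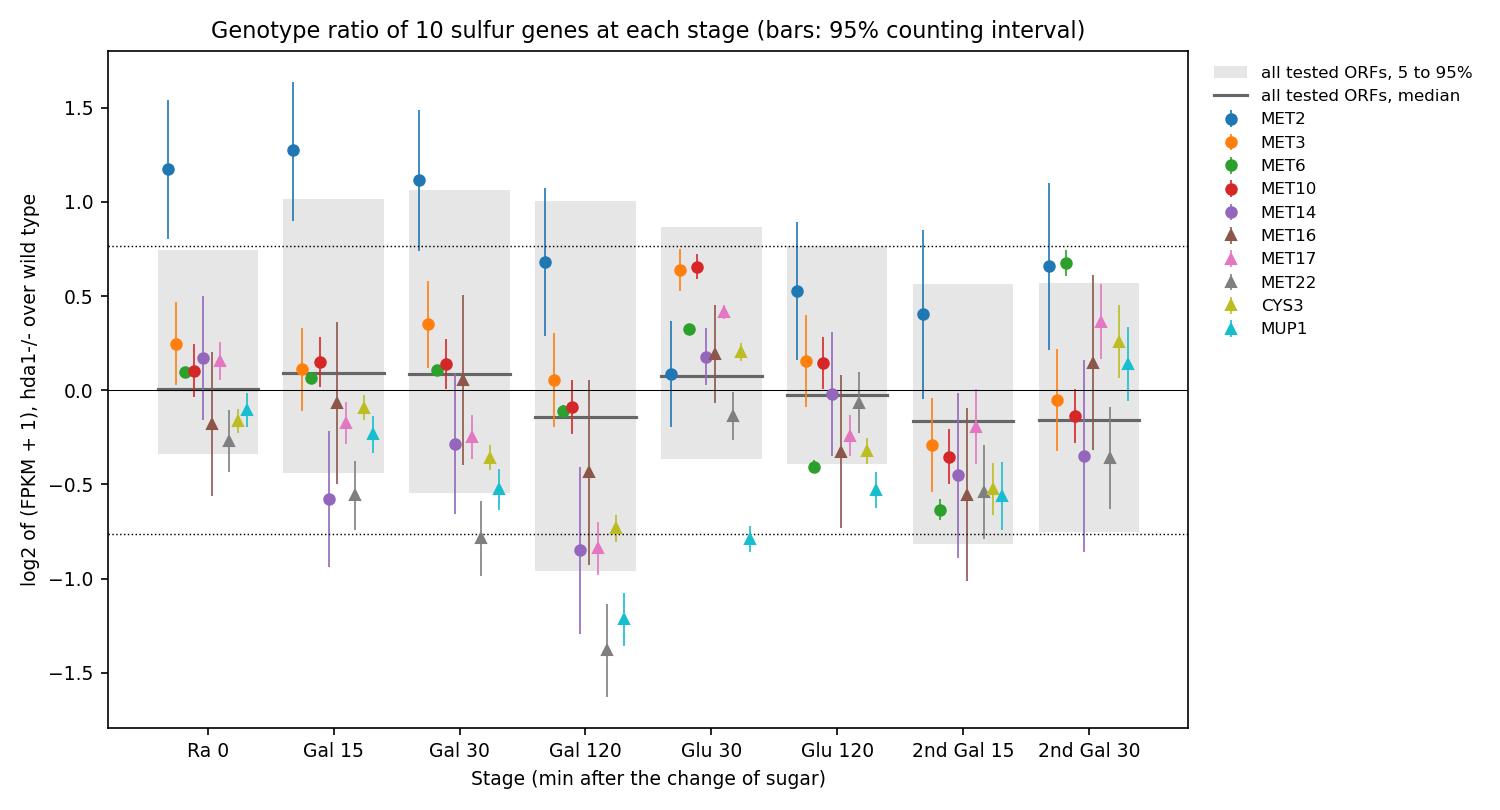
The log2 ratio of FPKM plus 1, hda1-/- over wild type, for the 10 genes at each stage, with 95% counting intervals; grey boxes hold 5 to 95% of all tested open reading frames, grey lines are their medians and dotted lines are 1.7-fold. MET2 lies above the upper dotted line at the first 3 stages, and MET14, MET17, MET22 and MUP1 lie below the lower one at 120 min of galactose, as do MET22 at 30 min of galactose and MUP1 at 30 min of glucose.

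Over all 80 pairs of gene and stage, 3 were called higher in hda1-/-, where 5.99% of pairs over all tested open reading frames were, and 6 were called lower, where 3.53% were. All 3 higher calls were of MET2. Of the lower calls, 4 were at 120 min of galactose, with 4 of the 10 genes (MET22, MUP1, MET14 at 0.555-fold and MET17 at 0.559-fold) where 9.79% of tested open reading frames were called. The other 2 were MET22 at 30 min of galactose, where 2.41% of tested open reading frames were called lower, and MUP1 at 30 min of glucose. Without the 120 min galactose stage, 2 lower calls remained. At 120 min of galactose the median fold of the 10 genes was 0.667, beside 0.905 over all tested open reading frames. Relative to that median MET14 (0.613-fold) and MET17 (0.618-fold) fell inside the threshold, MET22 and MUP1 stayed past it, where 5.88% of tested open reading frames were then called lower, and MET2 was called higher (1.77-fold), where 10.3% were. Genes for structural and other noncoding RNAs took 15.7% of gene-assigned bases in the hda1-/- library of this stage, the highest of the 16, and 10.2% in the wild-type one, and the part of this in the result was not tested.

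From raffinose to 120 min of galactose, 5 of the 10 genes fell past 2-fold in hda1-/-, where 15.3% of tested open reading frames did, and none in wild type, where 1.75% did. The 5 were MUP1 (0.286-fold), MET22 (0.303-fold), MET17 (0.344-fold), MET14 (0.361-fold) and MET16 (0.491-fold, or 0.616-fold relative to the median of all tested open reading frames). In wild type the folds of the 10 lay between 0.588 and 0.939. At 15 min of this pulse none of the 10 passed 2-fold in either strain, where 4.39% of tested open reading frames passed it upward and 1.53% downward in hda1-/-, and 2.38% upward and 0.833% downward in wild type. At 30 min none did either, where 6.22% passed it upward and 3.33% downward in hda1-/-, and 3.15% upward and 1.29% downward in wild type. All 10 folds to 120 min were smaller in hda1-/- than in wild type, beside a median difference of -0.18 on the log2 scale over all tested open reading frames. These folds rest on the same hda1-/- library as the genotype calls at 120 min of galactose, so they are not a separate result. MUP1, MET22, MET17 and MET14 were called in both.

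By 120 min of glucose the peak had passed. Relative to 120 min of galactose, 4 genes were then past 2-fold upward in hda1-/-, MET22 (3.61-fold), MUP1 (2.74-fold), MET14 (2.48-fold) and MET17 (2.12-fold, or 1.75-fold relative to the median of all), where 17.0% of tested open reading frames were. In wild type none was, where 3.71% were, with folds of 0.869 to 1.701. These 4 are the genes called lower in hda1-/- at 120 min of galactose, and both comparisons use that same library.

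The second galactose pulse split the group. At 15 min, relative to 120 min of glucose, 5 genes fell past 2-fold in hda1-/- (MET6, MET17, MET22, CYS3 and MUP1), where 17.5% of tested open reading frames did, and 4 in wild type (the same less MET22, at 0.532-fold), where 11.4% did. At 30 min, 6 did in hda1-/- (those 5 and MET14), where 21.6% of tested open reading frames did, and 5 in wild type (those 5), where 19.4% did. CYS3 fell furthest, to 0.182-fold in hda1-/- (0.165 to 0.201) and 0.122-fold in wild type (0.1096 to 0.135). MET6 was at 0.476-fold in hda1-/- and 0.225-fold in wild type, MUP1 at 0.343-fold in hda1-/- and 0.216-fold in wild type, and MET17 at 0.444-fold in hda1-/- and 0.292-fold in wild type. MET2, MET3, MET10 and MET16 stayed between 0.795 and 1.27-fold in both strains at 30 min, all within 2-fold. MET6, MET17, CYS3 and MUP1 had their lowest values of the whole course in the second pulse in both strains. Over the 7 changes of stage together, the 10 genes passed 2-fold upward in 13 of 70 pairs and downward in 16 in hda1-/-, beside 13.3% and 10.6% over all tested open reading frames, and in 9 pairs each way in wild type, beside 8.32% and 6.32%.

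The first and second pulses can be set side by side at matched times. At 15 min, MET6, MET17, CYS3 and MUP1 were past 2-fold lower in the second pulse than in the first in hda1-/-, where 10.5% of tested open reading frames were, and the same 4 in wild type, where 6.51% were. At 30 min, 2 genes were in hda1-/- (MET6 at 0.265-fold and CYS3 at 0.181-fold), where 14.1% of tested open reading frames were. In wild type 4 were, MET6 at 0.179-fold, MET17 at 0.374-fold, CYS3 at 0.118-fold and MUP1 at 0.321-fold, where 14.5% were. MUP1 (0.509-fold) and MET17 (0.571-fold) were just within 2-fold in hda1-/- at 30 min. The pulses began from different sugars, raffinose and glucose.

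Another 41 genes of sulfur metabolism, for sulfate uptake, homoserine supply, transsulfuration, the S-adenosylmethionine cycle, salvage, transport, glutathione and regulation, were all expressed and tested. From 120 min of galactose to 30 min of glucose, 19 of the 41 passed 2-fold upward and none downward in hda1-/-, with a median of 1.92-fold, beside 28.6% and 5.70% of all tested open reading frames. In wild type 14 passed it upward and 1 downward, with a median of 1.56-fold, beside 10.1% and 4.03%. Both medians lie between those of the 10 genes and those of all tested open reading frames. The 1 of the 41 that went downward in wild type was MDE1, whose separate low and high values are described under other observations. From 120 min of glucose to 30 min of the second pulse, 11 fell past 2-fold and 6 passed it upward in hda1-/-, against 11 and 5 in wild type, where 21.6% of all tested open reading frames fell and 16.8% passed upward in hda1-/-, and 19.4% fell and 20.4% passed upward in wild type. Between genotypes, 1 to 4 of the 41 were called higher at a stage, beside 3.32 to 9.35% of all tested open reading frames, and 0 to 5 were called lower, beside 1.11 to 9.79%. The 5 lower were at 120 min of galactose, the stage of the 9.79%. In raffinose, at 15 min of galactose and at 120 min of glucose, MDE1 was the only one of the 41 called lower. MDE1 was also among those called higher at 30 min of glucose and at 15 and 30 min of the second pulse.

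YCT1, a high-affinity cysteine transporter, was past the genotype threshold at more stages than any of the 10 genes. It was at 21.6, 34.6, 43.3, 51.8, 65.7, 20.3, 88.2 and 71.1 FPKM in hda1-/-, against 9.14, 10.7, 10.9, 13.0, 28.6, 7.79, 31.8 and 41.5 FPKM in wild type. It was called higher in hda1-/- at 7 of 8 stages, at up to 3.78-fold, and it was highest in the second galactose pulse in both strains, where MET6, CYS3 and MUP1 were at their lowest. OPT1, a glutathione transporter, was called higher in hda1-/- in raffinose (2.17-fold) and at 15 and 30 min of galactose (1.93 and 1.86-fold), the same 3 stages as MET2. OPT1 was at 13.2, 10.9 and 9.97 FPKM there in hda1-/-, against 5.53, 5.19 and 4.89 FPKM in wild type. Along the course OPT1 fell past 2-fold at 3 changes of stage in hda1-/- and at 0 in wild type. It passed 2-fold upward at 2 changes in each strain.

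HOM3, aspartate kinase at the head of homoserine synthesis, fell past 2-fold at 4 of the 7 changes of stage in hda1-/-, to 0.246-fold from raffinose to 120 min of galactose and to 0.151-fold from 120 min of glucose to 30 min of the second pulse. The same HOM3 folds in wild type were 0.593 and 0.159, and HOM3 was called lower in hda1-/- at 30 min (0.557-fold) and 120 min (0.346-fold) of the first pulse. SAM2, a synthase of S-adenosylmethionine, SAH1, which splits S-adenosylhomocysteine, and MRI1, of methionine salvage, each fell past 2-fold at 3 changes of stage in hda1-/-. In wild type HOM3, SAM2, SAH1 and MRI1 each fell past 2-fold at 2 changes. Over the 7 changes together, 10.6% of pairs over all tested open reading frames fell past 2-fold in hda1-/- and 6.32% in wild type. The genes are named here because they passed the fold at 3 or more stages or changes in 1 direction. At 30 min of the second pulse relative to 120 min of glucose, SAH1 was at 0.133-fold in hda1-/- and 0.0731-fold in wild type, and SAM2 was at 0.169-fold in hda1-/- and 0.0960-fold in wild type. MRI1 was at 0.204-fold in hda1-/- and 0.240-fold in wild type. SAH1 was within 2-fold at the glucose peak of the 10 genes, at 0.935-fold in hda1-/- and 0.687-fold in wild type from 120 min of galactose to 30 min of glucose.

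Of the 6 regulators, 4 stayed within both thresholds throughout. MET4, the activator, lay between 29.3 and 58.0 FPKM in hda1-/- and between 32.7 and 55.9 FPKM in wild type, and CBF1 between 20.6 and 33.4 FPKM in hda1-/- and between 26.9 and 34.2 FPKM in wild type. MET30 lay between 20.8 and 36.7 FPKM in hda1-/- and between 18.8 and 31.3 FPKM in wild type, and MET31 between 10.3 and 16.8 FPKM in hda1-/- and between 12.01 and 20.6 FPKM in wild type. None of these passed a threshold in any comparison between genotypes or along the course. MET4 came near, since in hda1-/- its lowest value was at 120 min of galactose and its highest at 30 min of glucose. Those values were 1.98-fold apart without the added 1 FPKM. The median over all tested open reading frames, with 1 FPKM added, was 1.47-fold. MET4 and CBF1 were highest at 30 min of glucose in both strains, MET30 in hda1-/- only and MET31 in wild type only. MET32 and MET28, a cofactor of Met4, passed 2-fold upward from 120 min of galactose to 30 min of glucose in both strains. For MET32 the folds were 2.49 in hda1-/- and 2.57 in wild type, and for MET28 they were 2.41 in hda1-/- and 2.69 in wild type. MET28 also passed 2-fold upward from 120 min of glucose to 30 min of the second pulse, by 2.73-fold in hda1-/- and 2.77-fold in wild type, where it had its highest values, 14.8 FPKM in hda1-/- and 10.4 FPKM in wild type. MET32 was low, at 0.771 to 5.29 FPKM in hda1-/- and 1.54 to 5.74 FPKM in wild type, and its one genotype call (0.547-fold at 15 min of the second pulse) rests on few fragments. At 30 min of the second pulse MET32 went the other way, at 1.68-fold, within the threshold. Relative to the median of all tested open reading frames, the lower call fell inside the threshold and the value at 30 min passed it. MET28 was 1.297 to 1.45-fold higher in hda1-/- at all 8 stages, within the threshold, and 554 of its 564 bases overlap YIR017W-A on the opposite strand.

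The profiles of the 10 genes resembled one another to different degrees. Over the 16 libraries, which share the glucose peak, Pearson's r of log2 levels among the 45 pairs lay between 0.24 and 0.98 with a median of 0.73. Without the 2 libraries at 30 min of glucose it lay between -0.41 and 0.98 with a median of 0.44, so the likeness was lower outside that stage. MET17 followed the mean of the other 9 most closely (r = 0.99) and MET2 least (r = 0.53). Among 4998 other open reading frames averaging at least 10 FPKM, those most like the mean profile of the 10 genes were CCT8, PCM1, SSM4, SPT16, GFA1, POB3, SHM2, ARG4, SER1 and ADE13, with r between 0.97 and 0.98 over 16 libraries. All 10 of these were also highest at 30 min of glucose in both strains, and without that stage their r lay between 0.93 and 0.98. They were picked for high r over all 16 libraries and not ranked again, so neither observation is a separate check. Their r is with a mean of 10 genes and is not comparable with the values for pairs. None of these 10 open reading frames belongs to the 41 sulfur genes. Of the 41, 29 were abundant enough to be ranked and SAM3, an S-adenosylmethionine permease, came first (r = 0.89, rank 227). CCT8 reached 194 FPKM at 30 min of glucose in hda1-/- and 218 FPKM in wild type.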

How the data were processed

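RNA was extracted with hot phenol, made into libraries with the NEXTflex Rapid Directional mRNA-Seq kit and sequenced on a HiSeq2500 by the authors. HISAT2 2.0.4 aligned the reads and StringTie 1.3.0 estimated levels on the R64 genome with Ensembl release 86 annotation, per the file headers and the submitters' processing notes, which also name FastQC 0.11.5, SAMtools and bedtools 2.26.0. Each of the 16 deposited files lists coverage, FPKM and TPM for 7126 transcripts, and the deposited FPKM were used.

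Coverage times length gave aligned bases, which piled up at multiples of 101, so 202 bases were counted as 1 fragment (9.37 to 13.8 M per library). Levels carry exact Poisson and folds exact binomial 95% intervals, both of counting error only. For a transcript of 1 kb, 3 fragments are 0.217 to 0.320 FPKM. With 1 library per genotype and stage no test was run. Ratios used FPKM plus 1 over the 5881 nuclear open reading frames with a mean of at least 1 FPKM. The members, lists and thresholds were chosen with earlier results of these data known. Named by rule were the 10 genes, HDA1, 6 regulators, other sulfur genes past the fold at 3 or more stages or shifts in one direction, and the 10 open reading frames most alike. The procedure was also run on simulated counts that held Poisson counting error only, which cannot measure variation between libraries. Alternatives were pseudocounts of 0.1 and 5, TPM, centring, other thresholds and leaving out stages. Scaling to the sum of tested open reading frames and leaving out MET2 or the glucose 30 min libraries were chosen after seeing the data. All 10 genes have the same start and end in the RefSeq annotation of R64. The tools were SciPy 1.17.1, pandas 2.3.3 and NumPy 2.4.6 in Python 3.11.15, with plots from matplotlib 3.10.9.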

Additional observations from a re-analysis of the deposited data

How the results depend on the processing

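Of 80 genotype folds of single genes, 78 kept their side of the 1.7-fold threshold with a pseudocount of 0.1 and with TPM, and 75 with a pseudocount of 5 and with centring on the median of tested open reading frames. Centring turned the direction of 7 of the 80 and TPM of 1, all within the threshold. The 3 genotype calls higher became 5 with a pseudocount of 0.1, 0 with 5, 6 with centring, and 0 without MET2, and they ranged from 2 to 3 as each stage was left out. The 6 calls lower became 2 at a 2-fold threshold and ranged from 2 to 6. At a 3-fold threshold the 16 falls along the course in hda1-/- became 6 and the 9 rises in wild type became 5. As each change of stage was left out, rises ranged from 4 to 13 in hda1-/- and from 0 to 9 in wild type, and falls from 10 to 16 in hda1-/- and from 4 to 9 in wild type. The cause of these movements was not tested beyond what each setting removes. Requiring the counting interval to exclude 1 removed no call, and no gene fell under 3 fragments. No paired analysis was possible because each genotype has 1 library per stage, so strains can be matched only by stage, and stages of 1 strain are not replicates of a genotype. The depth limits MET2, MET14 and MET16 most, at 39 to 50 fragments in their lowest libraries.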

Other observations

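MDE1, an enzyme of methionine salvage, took separate low and high values among the libraries of each strain. It was at 2.93 to 6.53 FPKM in 4 hda1-/- libraries and 25.04 to 44.5 FPKM in the other 4, against 4.800 to 7.88 FPKM in 4 wild-type libraries and 31.3 to 50.04 FPKM in the other 4. It passed the genotype threshold upward at 3 stages and downward at 3.

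HIS3, an enzyme of histidine synthesis, was under 3 fragments in 7 of 8 hda1-/- libraries and at 68.0 FPKM in the other, and under 3 fragments in 2 of 8 wild-type libraries and at 39.4 to 85.7 FPKM in the other 6. It shares 44 bases with YOR203W. A gene listed near 0 in some libraries of 1 strain can be a failed estimate, and the cause was not tested.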
